A study of Mus musculus with 15 samples.

Results

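The xenobiotic cytochrome P450 genes of families 1 to 3 were measured in mouse liver. All genes whose symbol in the array annotation names a P450 of family 1, 2 or 3 were taken, with Cyp2c70 left out, which gave 52 of the 19938 genes that the annotation names singly, in 17 subfamilies. The largest subfamilies were Cyp2c with 12 genes, Cyp2d with 9, Cyp2j and Cyp3a with 6 each and Cyp2b with 5. Each of the 52 genes was covered by 1 transcript cluster, the unit of the GeneChip Mouse Gene 1.0 ST array that sums the probes along a gene. Averaged over all arrays, 30 of the 52 genes lay above the median gene and 22 below it. Cyp2d13 is annotated as a transcribed pseudogene. Another 5 clusters that stand for several P450 symbols at a time were left out, so genes named only in them, such as Cyp2a5 and Cyp2a4, have no value here. Cyp2c67, Cyp2c68, Cyp3a11, Cyp3a25, Cyp3a44 and Cyp3a57 are also named in these clusters and were read from a cluster of their own.

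The livers came from male C57BL/6J mice that ate 1 of 3 diets from week 8, after weaning. The Ath+HF diet, an atherogenic and high-fat diet, was given with 3% branched-chain amino acids (BCAA) or without them, and the basal diet was the control. Mice were killed at week 38, after 30 weeks of diet, or at week 68, after 60 weeks. There were 3 arrays each for Ath+HF+BCAA 68w, Ath+HF 68w, Ath+HF+BCAA 38w, Ath+HF 38w and basal diet 38w, 15 in all. The labels do not say that the arrays of a group came from separate mice, and a p-value here speaks of the scatter among arrays, possibly a technical one. No basal diet array at 68w was used, so that in every comparison of a 68w group with the basal diet the diet, the age and the time on the diet cannot be told apart. A difference in array processing between the weeks, which the labels do not describe, cannot be told apart from these either. With the array medians made equal, the median log2 difference of all genes from the basal diet moved from 0.05 to -0.14 in Ath+HF 68w. In Ath+HF+BCAA 68w it moved from 0.01 to -0.18, and between the 68w groups it stayed at -0.09. The labels also do not say whether a piece of 68w liver held tumour. Signals are log2 values, on which a difference of 1 is a doubling, and a gene was called where the limma adjusted p over all 19938 genes was under 0.05.

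Cytochrome P450 enzymes are heme proteins of the endoplasmic reticulum that insert oxygen into drugs, toxins, steroids and fatty acids, with electrons from P450 reductase and cytochrome b5. Their transcription in hepatocytes depends on hepatocyte factors such as HNF4α, C/EBPα and the FOXA proteins, and is raised by ligand-sensing receptors: the aryl hydrocarbon receptor (AHR) acts on family 1, and CAR and PXR act mainly on Cyp2b, Cyp2c and Cyp3a. In mouse liver many of these genes are also zonated, with Cyp1a2 and Cyp2e1 around the central vein and Cyp2f2 around the portal vein, and several differ between the sexes. Hepatic P450 expression is known to fall in inflammation.

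Many of these genes are tandem copies, and the promoter windows show how close some copies are. The windows run from 250 bases before to 50 bases after the annotated start and are RefSeq sequence of build GRCm38.p6, which had a window for 44 of the 52 genes. The array's own build was not named in the sources used here. The closest pair was Cyp2b9 (chr7:26173159-26173458, plus strand) and Cyp2b13 (chr7:26061245-26061544, plus strand), shown because, against the basal diet, these near copies were called in different groups. The capitals mark the bases that differ.
Cyp2b9: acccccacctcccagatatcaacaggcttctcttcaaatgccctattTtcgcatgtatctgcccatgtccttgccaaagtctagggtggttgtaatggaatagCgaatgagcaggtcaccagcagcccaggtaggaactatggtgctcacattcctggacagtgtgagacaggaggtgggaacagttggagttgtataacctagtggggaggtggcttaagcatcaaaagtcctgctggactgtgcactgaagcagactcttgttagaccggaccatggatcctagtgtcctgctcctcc
Cyp2b13: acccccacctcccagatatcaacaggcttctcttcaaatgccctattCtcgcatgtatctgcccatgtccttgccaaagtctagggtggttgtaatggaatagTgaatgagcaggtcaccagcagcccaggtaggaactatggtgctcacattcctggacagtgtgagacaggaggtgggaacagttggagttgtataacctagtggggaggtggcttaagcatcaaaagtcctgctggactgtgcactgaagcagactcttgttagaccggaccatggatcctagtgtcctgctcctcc
Of the 300 bases 298 were the same (99.3%). Counted from 1 at the 5′ end of the window, the differences were T48C and C104T, with the Cyp2b9 base before the position and the Cyp2b13 base after it.

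Within the Cyp2c genes that had a window, Cyp2c37 (chr19:39992174-39992473, plus strand) and Cyp2c50 (chr19:40089429-40089728, plus strand) were the closest pair, and both are among the genes that fell. Cyp2c54 and Cyp2c23 had no window and were not compared. They matched in 264 of 305 aligned positions (86.6%), and the capitals mark the 36 bases of each that have no match in the other.
Cyp2c37: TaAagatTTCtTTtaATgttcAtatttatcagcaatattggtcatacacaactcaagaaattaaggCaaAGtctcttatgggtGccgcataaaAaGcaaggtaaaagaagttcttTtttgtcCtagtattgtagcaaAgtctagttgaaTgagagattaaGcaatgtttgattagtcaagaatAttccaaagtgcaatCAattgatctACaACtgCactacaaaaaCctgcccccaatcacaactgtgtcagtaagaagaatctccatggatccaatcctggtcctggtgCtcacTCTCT
Cyp2c50: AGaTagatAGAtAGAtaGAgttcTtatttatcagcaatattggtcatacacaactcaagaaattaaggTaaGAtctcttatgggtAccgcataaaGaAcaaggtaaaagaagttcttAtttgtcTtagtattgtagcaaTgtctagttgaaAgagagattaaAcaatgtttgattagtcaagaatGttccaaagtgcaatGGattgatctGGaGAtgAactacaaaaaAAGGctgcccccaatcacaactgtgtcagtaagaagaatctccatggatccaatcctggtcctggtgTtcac
For Cyp2c29 (chr19:39286835-39287134, plus strand), Cyp2c55 (chr19:39006769-39007068, plus strand) and Cyp1a2 (chr9:57683606-57683905, minus strand), which moved in different directions, the capitals mark the TATA box letters TATAAA, read on either strand.
Cyp2c29: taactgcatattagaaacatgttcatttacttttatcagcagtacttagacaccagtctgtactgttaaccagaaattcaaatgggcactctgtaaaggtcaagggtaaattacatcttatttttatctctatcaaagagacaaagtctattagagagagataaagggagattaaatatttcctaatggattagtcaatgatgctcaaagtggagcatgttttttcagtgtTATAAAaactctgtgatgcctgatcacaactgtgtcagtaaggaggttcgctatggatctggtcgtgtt
Cyp2c55: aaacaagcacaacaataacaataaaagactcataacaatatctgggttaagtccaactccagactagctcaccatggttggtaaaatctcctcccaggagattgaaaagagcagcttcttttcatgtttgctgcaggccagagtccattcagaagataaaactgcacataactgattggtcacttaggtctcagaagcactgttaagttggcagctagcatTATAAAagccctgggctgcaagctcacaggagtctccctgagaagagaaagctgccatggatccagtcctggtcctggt
Cyp1a2: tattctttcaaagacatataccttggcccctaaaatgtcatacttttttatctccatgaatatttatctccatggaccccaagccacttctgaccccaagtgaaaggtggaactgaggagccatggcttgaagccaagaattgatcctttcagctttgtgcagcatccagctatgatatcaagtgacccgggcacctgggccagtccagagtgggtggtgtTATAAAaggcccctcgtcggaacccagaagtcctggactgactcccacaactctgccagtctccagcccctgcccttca
TATAAA, searched on both strands, was present in 20 of the 44 windows (45.5%) and in 13.6% of all 32851 windows of this length. CAAAGTCCA, the core of an HNF4 site, was present in 5 windows (11.4%), those of Cyp2c65, Cyp2c67, Cyp2c68, Cyp3a11 and Cyp3a16, against 0.475% of all windows. The nuclear receptor motif AGGTCA was in 14 (31.8%, against 16.3%), the C/EBP letters TTGCNNAA in 9 (20.5%, against 10.8%) and the AHR core GCGTG in 10 (22.7%, against 32.4%). Cyp1a1 and Cyp1b1 had GCGTG and Cyp1a2 did not. The STAT letters TTCNNNGAA were in 2 windows (4.55%, against 8.3%) and the D-box letters TTANGTAA in 1 (2.27%, against 2.32%). These are matches of letters, which overlap where motifs do, and were not tested as binding sites.

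A 68w group is named here by the label of its arrays and by nothing else. BCAA was given in the study as a treatment against liver fibrosis and inflammation, yet markers of both were higher under the BCAA label at 68w, so the labels of these 2 groups are in doubt. No array value used here settles them, and if they were exchanged every difference between Ath+HF+BCAA 68w and Ath+HF 68w would change its sign and their differences from the basal diet would change places. An exchange is 1 possibility, and other errors of labelling were not examined. The mean of 15 macrophage and monocyte markers in an array was 10.21 to 10.59 in Ath+HF+BCAA 68w and 8.05 to 8.15 in Ath+HF 68w. It was 8.61 to 8.67 on the basal diet, 9.61 to 10.06 in Ath+HF+BCAA 38w and 9.84 to 10.09 in Ath+HF 38w. Between the labels Ath+HF+BCAA 68w and Ath+HF 68w 13 of the 15 were higher under the BCAA label and none was lower (19.8% and 16.4% of all genes). In Ath+HF 68w 14 were lower than in Ath+HF 38w and none was higher (20.0% and 17.6% of all genes). The mean of 10 stellate cell and fibroblast markers was 9.51 to 9.55 in Ath+HF+BCAA 68w, 8.42 to 8.59 in Ath+HF 68w and 8.43 to 8.54 on the basal diet. Between the 68w labels 8 of 10 were higher under the BCAA label and none was lower (19.8% and 16.4% of all genes). The mean of 13 hepatocyte markers was 13.04 to 13.16, 13.23 to 13.28 and 13.19 to 13.21 in the same order of groups. Against the basal diet 1 of them was higher and 1 lower (fibrinogen alpha chain, Fga, at -0.92) in the Ath+HF+BCAA 68w arrays (22.9% and 21.8% of all genes). Between the 68w labels none was higher and 3 were lower (Fga, Hpd and Ttr) under the BCAA label (19.8% and 16.4% of all genes). In bulk liver, fewer cells of a type and less RNA per cell cannot be told apart. The part of these cell markers in the P450 results was not tested.

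The P450 genes moved most in the Ath+HF+BCAA 68w arrays, where 27 of 52 were lower and 6 higher than on the basal diet. Over all genes tested, 21.8% were lower and 22.9% higher in this comparison, and the median difference was -0.42 for the 52 genes and 0.01 for all genes. In the Ath+HF 68w arrays 11 were lower and 6 higher than on the basal diet, against 19.1% and 19.0% of all genes, with medians of -0.08 and 0.05. With the array medians made equal this split became 19 lower and 1 higher, against 30.8% lower and 5.97% higher of all genes, whose median difference was then -0.14. With quantile normalization it was 11 lower and 2 higher, against 20.0% and 11.1% of all genes.

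At 38w few P450 genes differed from the basal diet. The Ath+HF+BCAA 38w arrays had 1 gene higher and 1 lower (3.67% and 1.82% of all genes), and the Ath+HF 38w arrays had 3 higher and none lower (3.05% and 1.18%). Between Ath+HF+BCAA 38w and Ath+HF 38w limma called none in either direction, as for all genes (0% each), and 7 of the 52 and 1528 of all genes had an unadjusted p under 0.05.

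The groups at 68w were also set against the group of the same labelled diet at 38w. If the labels at 68w were exchanged, these would be comparisons between different diets as well as ages. Of the 52 genes 29 were lower and 4 higher in the Ath+HF+BCAA 68w arrays than in those of Ath+HF+BCAA 38w (18.3% and 20.5% of all genes), and 11 were lower and 4 higher in the Ath+HF 68w arrays than in those of Ath+HF 38w (20.0% and 17.6%). Between the labels Ath+HF+BCAA 68w and Ath+HF 68w, 20 were lower and 5 higher (16.4% and 19.8%). Comparisons that name the same group share its arrays. Over the 8 comparisons 44 of the 52 genes were called at least in 1, and the 8 called in none were Cyp2a22, Cyp2ab1, Cyp2d12, Cyp2f2, Cyp2g1, Cyp2j12, Cyp2j9 and Cyp3a57.

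**Figure D1:**
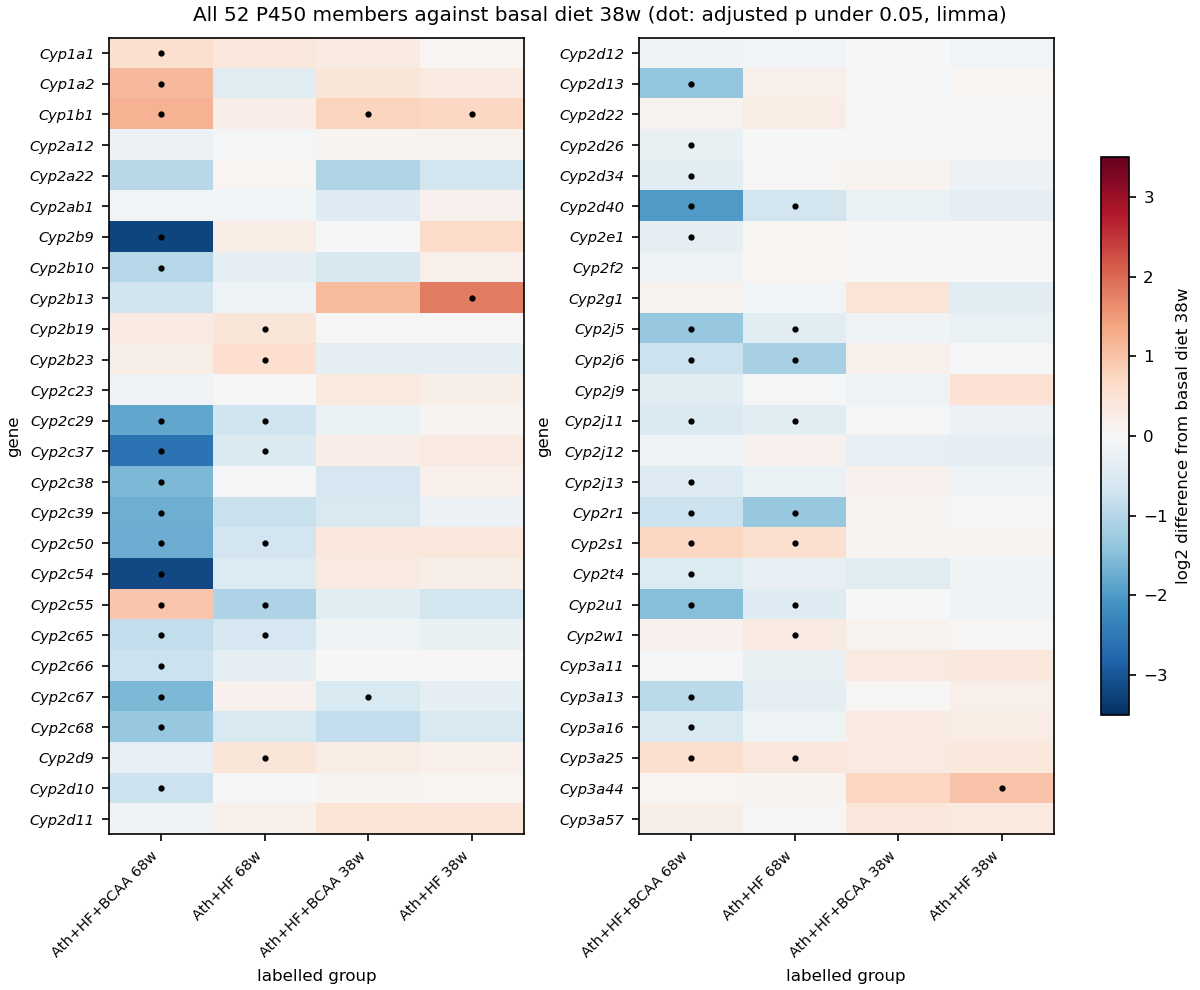
Log2 difference of each of the 52 genes (rows, by subfamily) from basal diet 38w in the 4 other labelled groups (columns), blue for lower and red for higher, with a dot where the limma adjusted p was under 0.05. The column of Ath+HF+BCAA 68w holds 33 dots, most of them in the Cyp2c, Cyp2d and Cyp2j rows, and the 38w columns hold 2 and 3.

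Family 1, the targets of AHR, went against the general fall. All 3 genes were higher in the Ath+HF+BCAA 68w arrays than on the basal diet (22.9% of all genes). Cyp1a2 read 13.00, 12.95 and 12.94 in the Ath+HF+BCAA 68w arrays, 11.65, 11.69 and 10.88 in the Ath+HF 68w arrays, 12.26, 12.17 and 12.33 in the Ath+HF+BCAA 38w arrays, 12.31, 12.32 and 11.77 in the Ath+HF 38w arrays and 11.84, 11.78 and 11.85 in the basal diet arrays. Cyp1a2 activates aromatic amines and is mainly a liver enzyme. The Ath+HF+BCAA 68w arrays lay above all other arrays and close to each other, and their difference from the basal diet was 1.14 (SE 0.18, adjusted p = 9.7e-05), a 2.21-fold higher signal. Against the Ath+HF 68w arrays it was 1.56 (SE 0.18, adjusted p = 6.1e-06). In the Ath+HF 68w arrays Cyp1a2 was not called against the basal diet at -0.42 (SE 0.18, adjusted p = 0.079), and was lower than in Ath+HF 38w at -0.73 (SE 0.18, adjusted p = 0.0059).

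Cyp1b1 read 7.55, 7.63 and 7.47 in the Ath+HF+BCAA 68w arrays, 6.44, 6.56 and 6.68 in the Ath+HF 68w arrays, 7.22, 6.95 and 7.13 in the Ath+HF+BCAA 38w arrays, 6.98, 7.07 and 7.08 in the Ath+HF 38w arrays and 6.19, 5.97 and 6.81 in the basal diet arrays. Cyp1b1, which hydroxylates oestrogens and polycyclic hydrocarbons, is in the liver better known from stellate cells than from hepatocytes. It was called against the basal diet in 3 of the 4 groups, at 1.23 (SE 0.16, adjusted p = 1.4e-05) in Ath+HF+BCAA 68w, 0.78 (SE 0.16, adjusted p = 0.0095) in Ath+HF+BCAA 38w and 0.72 (SE 0.16, adjusted p = 0.017) in Ath+HF 38w, and no array of these groups lay below the highest basal diet array. In the Ath+HF 68w arrays the difference was 0.23 (SE 0.16, adjusted p = 0.26), and the ranges overlapped. With the 38w arrays fitted alone, the limma adjusted p was 0.051 in Ath+HF+BCAA 38w and 0.078 in Ath+HF 38w, and the call in Ath+HF 38w was also lost without replicate 1 or 2 of the basal diet or replicate 2 or 3 of Ath+HF 38w (adjusted p = 0.0548 to 0.0667). The stellate cell and fibroblast marker mean was 8.77 to 9.23 in Ath+HF+BCAA 38w, 9.01 to 9.13 in Ath+HF 38w and 8.43 to 8.54 on the basal diet, and its part in the Cyp1b1 readings was not tested.

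Cyp1a1 read 6.17, 5.93 and 6.05 in the Ath+HF+BCAA 68w arrays, 5.86, 5.83 and 5.93 in the Ath+HF 68w arrays, 5.21, 5.86 and 6.27 in the Ath+HF+BCAA 38w arrays, 5.63, 5.32 and 5.70 in the Ath+HF 38w arrays and 5.82, 5.29 and 5.35 in the basal diet arrays. Cyp1a1 is the classical inducible AHR target and is low in unexposed liver. Only 13.1% of all genes had a lower group mean on the basal diet and 21.6% in Ath+HF+BCAA 68w, and the Cyp1a1 signal was not shown to be above background. Its difference from the basal diet in the Ath+HF+BCAA 68w arrays was 0.56 (SE 0.21, adjusted p = 0.038), without overlap, and this call was lost with the array medians made equal, with quantile normalization, with all transcript clusters tested, and without replicate 2 or 3 of the basal diet or any single array of Ath+HF+BCAA 68w (adjusted p = 0.0537 to 0.125). Against the Ath+HF 68w arrays the difference was 0.17 (SE 0.21, adjusted p = 0.52).

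**Figure D2:**
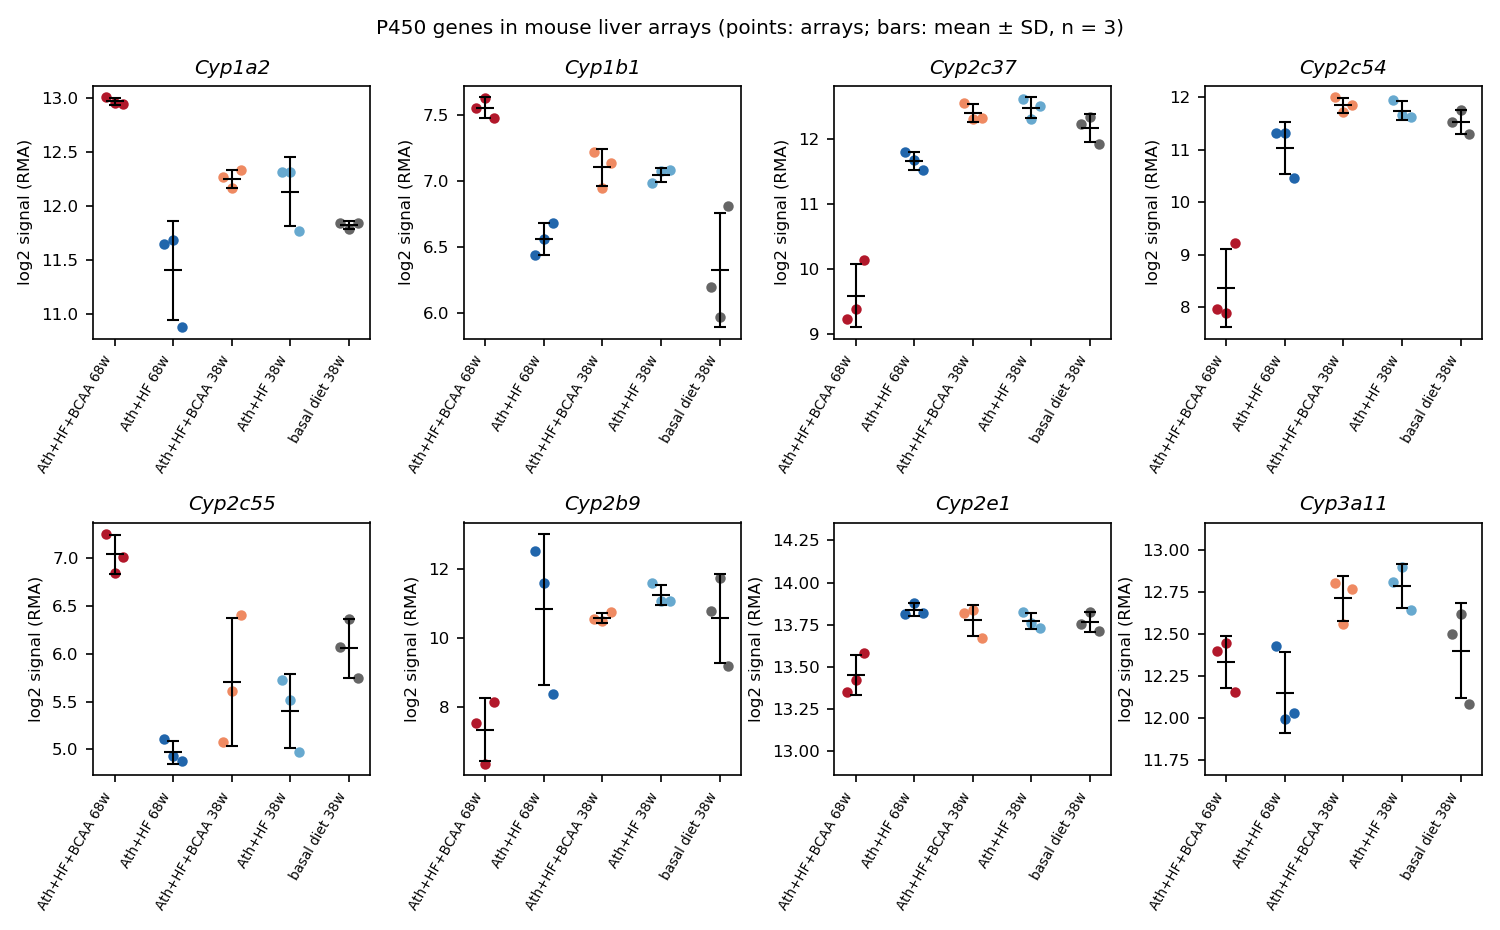
Log2 signal of 8 P450 genes in every array (points) of the 5 labelled groups (horizontal axis), with the mean and SD of 3 arrays. In the Ath+HF+BCAA 68w arrays Cyp1a2, Cyp1b1 and Cyp2c55 lie above, and Cyp2c37, Cyp2c54, Cyp2b9 and Cyp2e1 below, all other arrays of the same gene, while Cyp3a11 overlaps with the basal diet.

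The Cyp2c genes, whose enzymes in mouse turn arachidonic acid into epoxides and also clear drugs, made up the largest block of the fall. Of 12, 10 were lower and 1 was higher in the Ath+HF+BCAA 68w arrays than on the basal diet (21.8% and 22.9% of all genes), with a median of -1.57. Cyp2c54 read 7.97, 7.90 and 9.22 in the Ath+HF+BCAA 68w arrays, 11.32, 11.33 and 10.47 in the Ath+HF 68w arrays, 12.00, 11.71 and 11.85 in the Ath+HF+BCAA 38w arrays, 11.95, 11.66 and 11.63 in the Ath+HF 38w arrays and 11.52, 11.76 and 11.30 in the basal diet arrays. The Ath+HF+BCAA 68w arrays lay more than 1 below every other array, and the difference from the basal diet was -3.17 (SE 0.29, adjusted p = 4.5e-07), an 8.97-fold lower signal. In the Ath+HF 68w arrays it was -0.49 (SE 0.29, adjusted p = 0.2) and not called.

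Cyp2c37 read 9.24, 9.39 and 10.14 in the Ath+HF+BCAA 68w arrays, 11.80, 11.68 and 11.52 in the Ath+HF 68w arrays, 12.55, 12.31 and 12.32 in the Ath+HF+BCAA 38w arrays, 12.62, 12.31 and 12.51 in the Ath+HF 38w arrays and 12.23, 12.34 and 11.92 in the basal diet arrays. Again the groups labelled 68w stood apart from each other, with Ath+HF+BCAA 68w far below and Ath+HF 68w just below all basal diet arrays. The differences from the basal diet were -2.57 (SE 0.19, adjusted p = 5.7e-08) in Ath+HF+BCAA 68w, 5.95-fold lower, and -0.50 (SE 0.19, adjusted p = 0.0479) in Ath+HF 68w. The call in Ath+HF 68w was lost with any of 12 of the 15 arrays left out (adjusted p = 0.0507 to 0.148), all but basal diet replicate 3 and Ath+HF+BCAA 68w replicates 1 and 3.

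Cyp2c29 read 10.73, 10.53 and 10.80 in the Ath+HF+BCAA 68w arrays, 12.08, 11.91 and 11.38 in the Ath+HF 68w arrays, 12.34, 11.92 and 12.55 in the Ath+HF+BCAA 38w arrays, 12.78, 12.58 and 12.38 in the Ath+HF 38w arrays and 12.49, 12.55 and 12.44 in the basal diet arrays. Cyp2c29 is a CAR target of the central lobule. Both groups labelled 68w lay below the basal diet without overlap, at -1.80 (SE 0.18, adjusted p = 9.1e-07) in Ath+HF+BCAA 68w and -0.70 (SE 0.18, adjusted p = 0.0064) in Ath+HF 68w. Ath+HF+BCAA 68w was the lower of them, at -1.10 (SE 0.18, adjusted p = 0.00015).

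Cyp2c67 read 9.98, 10.43 and 10.14 in the Ath+HF+BCAA 68w arrays, 11.88, 12.00 and 11.82 in the Ath+HF 68w arrays, 11.03, 11.21 and 11.41 in the Ath+HF+BCAA 38w arrays, 11.47, 11.36 and 11.39 in the Ath+HF 38w arrays and 11.93, 11.73 and 11.61 in the basal diet arrays. Of the Cyp2c genes it was the one called at 38w, with a difference from the basal diet of -0.54 (SE 0.13, adjusted p = 0.021) in Ath+HF+BCAA 38w, a call lost with all clusters tested, with only the groups compared in the fit, and with basal diet replicate 1 or Ath+HF+BCAA 38w replicate 1 left out. At 68w the labelled groups parted: -1.57 (SE 0.13, adjusted p = 1.5e-07) in Ath+HF+BCAA 68w and 0.14 (SE 0.13, adjusted p = 0.39) in Ath+HF 68w, where it was higher than in Ath+HF 38w at 0.49 (SE 0.13, adjusted p = 0.0073). Cyp2c67 has close relatives in Cyp2c68, Cyp2c40 and Cyp2c69, and a cluster that holds all 4 symbols was left out, so reads of one copy by probes of another were not tested.

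Cyp2c55 read 7.26, 6.85 and 7.02 in the Ath+HF+BCAA 68w arrays, 5.11, 4.93 and 4.88 in the Ath+HF 68w arrays, 5.08, 5.61 and 6.41 in the Ath+HF+BCAA 38w arrays, 5.73, 5.52 and 4.97 in the Ath+HF 38w arrays and 6.07, 6.36 and 5.75 in the basal diet arrays. Cyp2c55, a CAR and PXR target that is also expressed in the gut, was the Cyp2c gene that was higher in Ath+HF+BCAA 68w, while in Ath+HF 68w it was lower together with 4 others. All Ath+HF+BCAA 68w arrays lay above, and all Ath+HF 68w arrays below, every basal diet array. The differences from the basal diet were 0.98 (SE 0.27, adjusted p = 0.0069) in Ath+HF+BCAA 68w and -1.09 (SE 0.27, adjusted p = 0.0052) in Ath+HF 68w, and between these groups it was 2.07 (SE 0.27, adjusted p = 1.7e-05). The signal was low: in Ath+HF 68w only 6.63% of all genes had a lower group mean, and no detection call was used here, so that it was not shown to be above background there and no fold is given.

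The remaining Cyp2c genes are given by their differences from the basal diet in Ath+HF+BCAA 68w. Cyp2c50 was at -1.72 (SE 0.23, adjusted p = 1.6e-05), Cyp2c39 at -1.72, Cyp2c38 at -1.57, Cyp2c68 at -1.34, Cyp2c65 at -0.87 and Cyp2c66 at -0.75, all called. Cyp2c38 was the one of these whose arrays overlapped with the basal diet, where replicate 3 read 9.21 against 11.20 and 10.89 in the others. Cyp2c65 was dim, with group means of 3.72 in Ath+HF+BCAA 68w and 4.59 on the basal diet, and was not shown to be above background. Cyp2c23, an epoxygenase best known from the kidney, was not called at -0.12 (SE 0.14, adjusted p = 0.51).

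On chromosome 19 the 12 genes follow each other in the order Cyp2c55, Cyp2c65, Cyp2c66, Cyp2c29, Cyp2c39, Cyp2c38, Cyp2c67, Cyp2c68, Cyp2c37, Cyp2c54, Cyp2c50 and Cyp2c23. Read along this order, the 10 genes that were lower in Ath+HF+BCAA 68w were neighbours among the measured members, the gene that was higher stood at one end and the gene that was not called at the other. The 3 neighbours Cyp2c37, Cyp2c54 and Cyp2c50 held differences of -2.57, -3.17 and -1.72, and the pair Cyp2c65 and Cyp2c66 next to Cyp2c55 held the smallest falls of the 10. Of this pair Cyp2c65 was not shown to be above background. In the Ath+HF 68w arrays the 12 genes had a median of -0.51, with 5 lower and none higher (19.1% and 19.0% of all genes). The place of a gene was not used in any test.

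**Figure D3:**
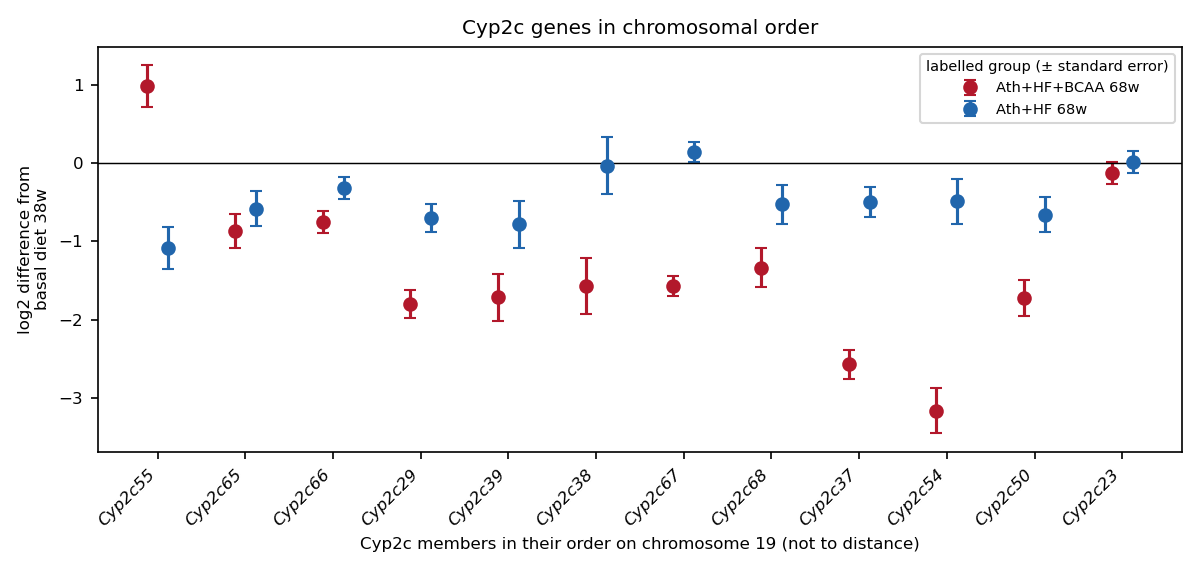
Log2 difference from basal diet 38w (vertical axis, points with standard errors) of the 12 Cyp2c genes in their order on chromosome 19 (horizontal axis, not to distance) for the labels Ath+HF+BCAA 68w and Ath+HF 68w. From Cyp2c65 to Cyp2c50 the points of Ath+HF+BCAA 68w lie between -0.75 and -3.17, below those of Ath+HF 68w, and at Cyp2c55 they lie above.

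Among the Cyp2b genes Cyp2b9 varied most between arrays of a group. Cyp2b9 and Cyp2b13 are female-biased in mouse liver, and Cyp2b10 is the classical CAR target. Cyp2b9 read 7.52, 6.36 and 8.14 in the Ath+HF+BCAA 68w arrays, 12.51, 11.58 and 8.37 in the Ath+HF 68w arrays, 10.53, 10.47 and 10.74 in the Ath+HF+BCAA 38w arrays, 11.57, 11.07 and 11.05 in the Ath+HF 38w arrays and 10.77, 11.74 and 9.17 in the basal diet arrays. The spread reached an SD of 2.18 in Ath+HF 68w and 1.30 on the basal diet, where replicate 3 was the low array in both, and the Ath+HF+BCAA 68w arrays lay below all others. The difference from the basal diet in Ath+HF+BCAA 68w was -3.22 (SE 0.80, adjusted p = 0.0041), and that from Ath+HF 68w was -3.48 (SE 0.80, adjusted p = 0.0031).

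Cyp2b13 read 5.21, 4.79 and 5.49 in the Ath+HF+BCAA 68w arrays, 6.01, 5.85 and 5.19 in the Ath+HF 68w arrays, 6.69, 6.86 and 7.37 in the Ath+HF+BCAA 38w arrays, 8.49, 7.55 and 7.02 in the Ath+HF 38w arrays and 5.55, 6.36 and 5.70 in the basal diet arrays. Here the high groups were those on the Ath+HF diet at 38w: Ath+HF+BCAA 38w differed from the basal diet by 1.11 (SE 0.33, adjusted p = 0.063), without overlap but not called, and Ath+HF 38w by 1.82 (SE 0.33, adjusted p = 0.0047), also without overlap. On the basal diet 19.3% of all genes had a lower group mean than Cyp2b13, and its signal there was not shown to be above background. Cyp2b9, whose promoter window differs from that of Cyp2b13 at 2 bases, had 0.67 (SE 0.80, adjusted p = 0.72) in Ath+HF 38w, where its arrays lay within the basal diet range. In the arrays labelled 68w Cyp2b13 was lower than at 38w under the same diet label, at -1.82 (SE 0.33, adjusted p = 0.00048) for Ath+HF+BCAA and -2.01 (SE 0.33, adjusted p = 0.00032) for Ath+HF. In the first of these comparisons Cyp2b9 was called lower too, at -3.24 (SE 0.80, adjusted p = 0.0049).

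Cyp2b10 read 6.56, 6.11 and 6.11 in the Ath+HF+BCAA 68w arrays, 6.97, 6.79 and 6.93 in the Ath+HF 68w arrays, 6.65, 6.45 and 6.92 in the Ath+HF+BCAA 38w arrays, 7.34, 7.32 and 7.61 in the Ath+HF 38w arrays and 6.93, 8.19 and 6.61 in the basal diet arrays. The difference from the basal diet was -0.99 (SE 0.28, adjusted p = 0.01) in Ath+HF+BCAA 68w, and all 3 arrays lay below the lowest basal diet array. Cyp2b23 read 6.74, 6.83 and 6.63 in the Ath+HF+BCAA 68w arrays, 6.92, 7.19 and 7.24 in the Ath+HF 68w arrays, 6.41, 6.40 and 5.79 in the Ath+HF+BCAA 38w arrays, 5.59, 6.43 and 6.56 in the Ath+HF 38w arrays and 6.51, 6.49 and 6.59 in the basal diet arrays. Cyp2b19 read 5.97, 5.81 and 5.87 in the Ath+HF+BCAA 68w arrays, 6.18, 6.00 and 5.89 in the Ath+HF 68w arrays, 5.66, 5.70 and 5.53 in the Ath+HF+BCAA 38w arrays, 5.95, 5.24 and 5.75 in the Ath+HF 38w arrays and 5.79, 5.42 and 5.56 in the basal diet arrays. Cyp2b19 is known from keratinocytes. Both genes were higher in Ath+HF 68w than on the basal diet without overlap, Cyp2b23 at 0.59 (SE 0.21, adjusted p = 0.037) and Cyp2b19 at 0.43 (SE 0.15, adjusted p = 0.035), and both calls were lost with the array medians made equal, with quantile normalization and with all transcript clusters tested. They were also lost with single arrays left out, for Cyp2b23 any basal diet array or Ath+HF 68w replicate 2 or 3, and for Cyp2b19 basal diet replicate 2 or 3 or Ath+HF 68w replicate 1 or 2.

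Among the 9 Cyp2d genes, relatives of the human debrisoquine hydroxylase, 5 were lower and none higher in the Ath+HF+BCAA 68w arrays than on the basal diet (21.8% and 22.9% of all genes), with a median of -0.28. The largest falls were those of Cyp2d40 at -1.97 (SE 0.18, adjusted p = 3.8e-07) and the pseudogene Cyp2d13 at -1.38 (SE 0.15, adjusted p = 2e-06), and Cyp2d10, Cyp2d34 and Cyp2d26 were at -0.75, -0.38 and -0.26. Cyp2d9 read 11.14, 10.93 and 10.97 in the Ath+HF+BCAA 68w arrays, 11.55, 11.69 and 11.89 in the Ath+HF 68w arrays, 11.70, 11.57 and 11.38 in the Ath+HF+BCAA 38w arrays, 11.48, 11.48 and 11.44 in the Ath+HF 38w arrays and 11.17, 11.28 and 11.42 in the basal diet arrays. Cyp2d9, a male-biased steroid hydroxylase, was not called against the basal diet in Ath+HF+BCAA 68w, at -0.28 (SE 0.11, adjusted p = 0.055), and was higher in Ath+HF 68w at 0.42 (SE 0.11, adjusted p = 0.0087), a call lost with the array medians made equal. Between these groups the difference was -0.70 (SE 0.11, adjusted p = 0.00015), without overlap. Cyp2d22 read 11.94, 11.82 and 12.11 in the Ath+HF+BCAA 68w arrays, 12.24, 11.97 and 12.09 in the Ath+HF 68w arrays, 12.00, 11.80 and 11.80 in the Ath+HF+BCAA 38w arrays, 11.90, 11.85 and 11.69 in the Ath+HF 38w arrays and 11.83, 11.85 and 11.86 in the basal diet arrays. Cyp2d22 varied little and was called in 1 comparison, higher in Ath+HF 68w than in Ath+HF 38w at 0.29 (SE 0.10, adjusted p = 0.042), a call lost under several alternative settings, among them array medians made equal and quantile normalization, and with replicate 2 or 3 of Ath+HF 38w, 1 or 3 of Ath+HF 68w or 1 of Ath+HF+BCAA 68w left out.

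The Cyp2j genes, epoxygenases of arachidonic acid, had 4 of 6 lower in Ath+HF+BCAA 68w (21.8% of all genes) and 3 of 6 lower in Ath+HF 68w (19.1% of all genes) than on the basal diet. Cyp2j5 read 11.10, 11.16 and 11.52 in the Ath+HF+BCAA 68w arrays, 12.22, 12.37 and 12.02 in the Ath+HF 68w arrays, 12.46, 12.50 and 12.47 in the Ath+HF+BCAA 38w arrays, 12.46, 12.25 and 12.33 in the Ath+HF 38w arrays and 12.63, 12.59 and 12.55 in the basal diet arrays. Ath+HF+BCAA 68w was lowest and Ath+HF 68w also lay below the basal diet without overlap, with differences from the basal diet of -1.33 (SE 0.12, adjusted p = 3e-07) in Ath+HF+BCAA 68w and -0.38 (SE 0.12, adjusted p = 0.017) in Ath+HF 68w. The call in Ath+HF 68w was lost with array weights (adjusted p = 0.057) and without basal diet replicate 1 (adjusted p = 0.0506) or Ath+HF 68w replicate 3 (adjusted p = 0.0868). Cyp2j6 read 9.18, 9.23 and 9.30 in the Ath+HF+BCAA 68w arrays, 8.90, 9.10 and 8.51 in the Ath+HF 68w arrays, 10.15, 10.01 and 10.33 in the Ath+HF+BCAA 38w arrays, 10.06, 10.01 and 9.80 in the Ath+HF 38w arrays and 9.91, 10.02 and 10.06 in the basal diet arrays. For Cyp2j6 the Ath+HF+BCAA 68w arrays were at -0.76 (SE 0.13, adjusted p = 0.00024) from the basal diet and the Ath+HF 68w arrays, the lowest of all, at -1.17 (SE 0.13, adjusted p = 2.7e-05). The difference between these groups was 0.40 (SE 0.13, adjusted p = 0.028), which was not called without Ath+HF 68w replicate 3 or without replicate 2 or 3 of Ath+HF+BCAA 68w.

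Cyp2r1, a vitamin D hydroxylase of the liver, shared this order. Cyp2r1 read 7.89, 7.89 and 8.17 in the Ath+HF+BCAA 68w arrays, 7.75, 7.59 and 6.87 in the Ath+HF 68w arrays, 8.84, 8.51 and 9.07 in the Ath+HF+BCAA 38w arrays, 8.82, 8.70 and 8.72 in the Ath+HF 38w arrays and 8.91, 8.63 and 8.63 in the basal diet arrays. Its Ath+HF 68w arrays lay below all others, and the differences from the basal diet were -0.74 (SE 0.19, adjusted p = 0.0048) in Ath+HF+BCAA 68w and -1.32 (SE 0.19, adjusted p = 0.00013) in Ath+HF 68w, in that group the largest fall of the 52 genes. Replicate 3 of Ath+HF 68w was the lowest array, and the difference between the 68w groups, 0.58 (SE 0.19, adjusted p = 0.026), was called neither without it nor without replicate 3 of Ath+HF+BCAA 68w, nor with all transcript clusters tested. Cyp2u1, a fatty acid hydroxylase that is male-biased in mouse liver, was at -1.48 (SE 0.16, adjusted p = 3.1e-06) from the basal diet in Ath+HF+BCAA 68w and at -0.46 (SE 0.16, adjusted p = 0.039) in Ath+HF 68w.

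Cyp2e1 read 13.35, 13.42 and 13.58 in the Ath+HF+BCAA 68w arrays, 13.81, 13.88 and 13.82 in the Ath+HF 68w arrays, 13.82, 13.84 and 13.67 in the Ath+HF+BCAA 38w arrays, 13.83, 13.76 and 13.73 in the Ath+HF 38w arrays and 13.75, 13.83 and 13.71 in the basal diet arrays. Cyp2e1, which oxidises ethanol and acetaminophen around the central vein, was lower in Ath+HF+BCAA 68w than on the basal diet by a small step, -0.31 (SE 0.09, adjusted p = 0.0086), without overlap. Cyp2f2 read 13.09, 13.03 and 13.38 in the Ath+HF+BCAA 68w arrays, 13.60, 13.49 and 13.12 in the Ath+HF 68w arrays, 13.45, 13.37 and 13.31 in the Ath+HF+BCAA 38w arrays, 13.49, 13.26 and 13.24 in the Ath+HF 38w arrays and 13.37, 13.28 and 13.37 in the basal diet arrays. The periportal Cyp2f2 was called in none of the 8 comparisons, with -0.17 (SE 0.13, adjusted p = 0.29) in Ath+HF+BCAA 68w. Cyp2s1 read 7.32, 7.41 and 7.26 in the Ath+HF+BCAA 68w arrays, 7.10, 7.28 and 7.16 in the Ath+HF 68w arrays, 6.74, 6.89 and 6.52 in the Ath+HF+BCAA 38w arrays, 6.59, 6.92 and 6.64 in the Ath+HF 38w arrays and 6.69, 6.56 and 6.58 in the basal diet arrays. Cyp2s1, known mainly from epithelia outside the liver, was higher in both groups labelled 68w, at 0.72 (SE 0.11, adjusted p = 8.7e-05) in Ath+HF+BCAA 68w and 0.57 (SE 0.11, adjusted p = 0.0014) in Ath+HF 68w, and none of these arrays overlapped with those at 38w.

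The Cyp3a genes, which carry much of the oxidation of drugs and bile acids, had 1 of 6 higher and 2 lower in Ath+HF+BCAA 68w than on the basal diet, with a median of -0.0039, close to the 22.9% higher and 21.8% lower of all genes. Cyp3a11 read 12.40, 12.44 and 12.16 in the Ath+HF+BCAA 68w arrays, 12.43, 11.99 and 12.03 in the Ath+HF 68w arrays, 12.80, 12.56 and 12.77 in the Ath+HF+BCAA 38w arrays, 12.81, 12.90 and 12.64 in the Ath+HF 38w arrays and 12.50, 12.62 and 12.08 in the basal diet arrays. Cyp3a11, the main PXR target in mouse liver, was not called against the basal diet in any group, with -0.07 (SE 0.15, adjusted p = 0.74) in Ath+HF+BCAA 68w and -0.25 (SE 0.15, adjusted p = 0.2) in Ath+HF 68w, and was lower in Ath+HF 68w than in Ath+HF 38w at -0.63 (SE 0.15, adjusted p = 0.0042). Cyp3a13 read 10.35, 10.44 and 10.82 in the Ath+HF+BCAA 68w arrays, 11.17, 11.01 and 11.22 in the Ath+HF 68w arrays, 11.64, 11.72 and 11.14 in the Ath+HF+BCAA 38w arrays, 11.50, 11.61 and 11.80 in the Ath+HF 38w arrays and 11.62, 11.49 and 11.30 in the basal diet arrays. Its Ath+HF+BCAA 68w arrays lay below all others, at -0.93 (SE 0.16, adjusted p = 0.00016) from the basal diet.

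Cyp3a44 read 7.83, 7.92 and 7.89 in the Ath+HF+BCAA 68w arrays, 8.06, 7.57 and 8.09 in the Ath+HF 68w arrays, 8.55, 8.57 and 8.60 in the Ath+HF+BCAA 38w arrays, 8.68, 9.03 and 8.70 in the Ath+HF 38w arrays and 7.62, 8.46 and 7.37 in the basal diet arrays. The female-biased Cyp3a44 was high at 38w on the Ath+HF diet, with all arrays of Ath+HF+BCAA 38w and Ath+HF 38w above those of the basal diet. The difference was 0.75 (SE 0.21, adjusted p = 0.0503) in Ath+HF+BCAA 38w and 0.99 (SE 0.21, adjusted p = 0.015) in Ath+HF 38w. With the 38w arrays fitted alone the adjusted p in Ath+HF 38w was 0.056, and the call was also lost without replicate 1 or 3 of the basal diet or replicate 2 of Ath+HF 38w (adjusted p = 0.0607 to 0.076). In both groups labelled 68w it was close to the basal diet, at 0.06 (SE 0.21) in Ath+HF+BCAA 68w and 0.09 (SE 0.21) in Ath+HF 68w. Cyp3a25 was higher at 68w, at 0.57 (SE 0.14, adjusted p = 0.003) in Ath+HF+BCAA 68w and 0.40 (SE 0.14, adjusted p = 0.03) in Ath+HF 68w. Cyp3a16 was lower in Ath+HF+BCAA 68w at -0.54 (SE 0.21, adjusted p = 0.042), with overlap, and its promoter window matched that of Cyp3a44 in 93.4% of positions. Its group means were 3.89 in Ath+HF+BCAA 68w and 4.44 on the basal diet, not shown to be above background. Of the subfamilies with few genes, Cyp2t4 was lower in Ath+HF+BCAA 68w at -0.47 and Cyp2w1 higher in Ath+HF 68w at 0.31, while Cyp2a12 was lower in Ath+HF+BCAA 68w than in Ath+HF+BCAA 38w at -0.30.

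Whether the difference between the labels Ath+HF+BCAA and Ath+HF was the same at both ages was tested in 1 model over 4 groups that share no array between the ages. Its value at 68w rests on the labels in doubt there, and an exchange of those 2 labels would turn the sign of the 68w difference. The difference between the ages was called for 16 of the 52 genes, 3 higher and 13 lower, against 12.9% and 7.67% of all genes, with a median of -0.30 for the 52 and -0.05 for all genes. Cyp2c54 had -2.68 (SE 0.29, adjusted p = 3e-06) at 68w and 0.11 (SE 0.29, adjusted p = 0.96) at 38w, and these differed by -2.79 (SE 0.41, adjusted p = 0.00016). Cyp2c55 had 2.07 (SE 0.27) and 0.30 (SE 0.27), differing by 1.77 (SE 0.38, adjusted p = 0.0031), and Cyp1a2 1.56 (SE 0.18) and 0.12 (SE 0.18), differing by 1.44 (SE 0.26, adjusted p = 0.00078). The other gene with a higher difference at 68w was Cyp1b1, and the other 12 with a lower one were Cyp2c29, Cyp2c37, Cyp2c50, Cyp2c67, 5 Cyp2d genes, Cyp2e1, Cyp2j5 and Cyp2u1. No Cyp2b or Cyp3a gene was called, and Cyp2b9 had -2.83 (SE 1.14, adjusted p = 0.093). At 38w the differences of the 52 genes ran between -0.77 and 0.81 with a median of 0.01.

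**Figure D4:**
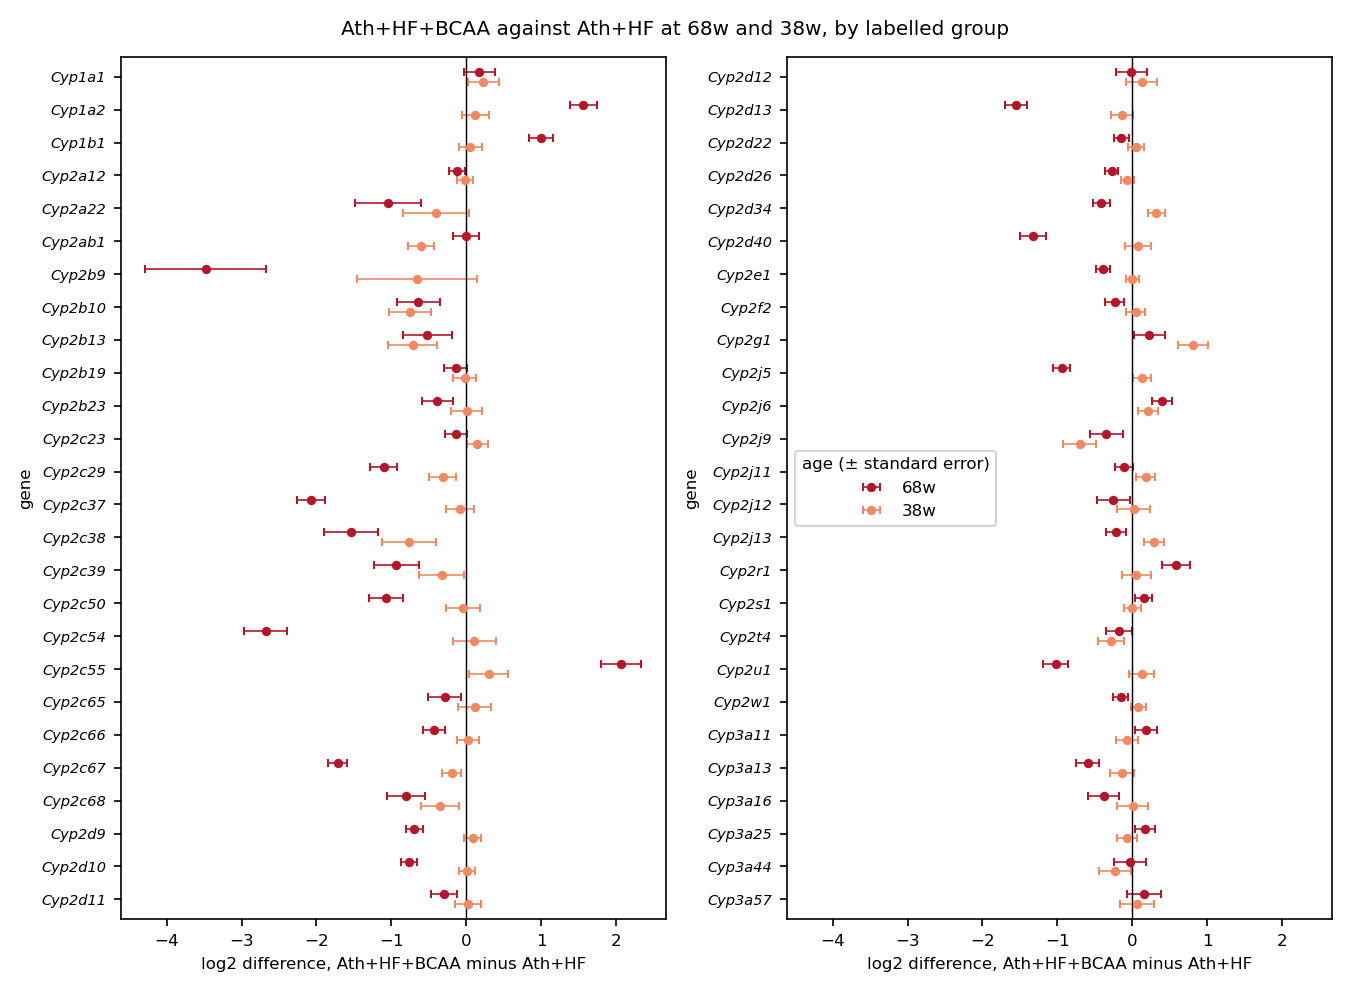
Log2 difference of Ath+HF+BCAA minus Ath+HF (horizontal axis, with standard errors) at 68w and 38w for each of the 52 genes (rows), by labelled group. At 38w no gene was called, and at 68w the points reach from -3.48 for Cyp2b9 to 2.07 for Cyp2c55.

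The genes that regulate or serve P450 enzymes were read in the same fit, in lists of known function, to be set beside the 21.8% lower and 22.9% higher of all genes and their median of 0.01 in Ath+HF+BCAA 68w against the basal diet. For Ath+HF 68w against the basal diet the shares of all genes were 19.1% lower and 19.0% higher, with a median of 0.05. Among the 6 receptor genes Ahr was higher in the Ath+HF+BCAA 68w arrays than on the basal diet at 0.85 (SE 0.18, adjusted p = 0.0014) and 0.83 (SE 0.18, adjusted p = 0.0023) from Ath+HF 68w, and no other was called against the basal diet. In Ath+HF 68w Nr1i3, which encodes CAR, was higher at 0.69 (SE 0.15, adjusted p = 0.0022) and its partner Rxra at 0.48 (SE 0.08, adjusted p = 0.00049), and both were lower in Ath+HF+BCAA 68w than in Ath+HF 68w, at -0.46 and -0.44. Nr1i2, which encodes PXR, was not called, with -0.21 (SE 0.14) and 0.04 (SE 0.14) from the basal diet in Ath+HF+BCAA 68w and Ath+HF 68w. Of 11 other genes that AHR, CAR, PXR or NRF2 act on, 6 were higher and 1 lower in Ath+HF+BCAA 68w: Gstm3 at 2.70, Abcb1a at 2.30, Nqo1 at 2.05, Gstm1 at 1.09, Abcc3 at 0.88 and Abcc2 at 0.70 were higher, and Ces2a was lower at -0.78. In Ath+HF 68w 1 was higher (Gadd45b) and 3 lower (Nqo1, Aldh1a1 and Ces2a).

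Of 10 genes for hepatocyte factors, 6 were lower in Ath+HF+BCAA 68w than on the basal diet and 1 was higher, with a median of -0.48. Nr1h4, the bile acid receptor, was at -1.20 (SE 0.15, adjusted p = 8.1e-06), Foxa3 at -0.59, Ppara at -0.58, Cebpa and Foxa2 at -0.48 each and Foxa1 at -0.45, while Nr0b2, a repressor of nuclear receptors, was at 0.61. Hnf4a was not called, at 0.06 (SE 0.11). In Ath+HF 68w none of the 10 was lower, and Nr0b2 (0.99) and Hnf4a (0.37) were higher (19.1% and 19.0% of all genes).

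P450 enzymes need heme. Of 7 genes of heme synthesis, 4 were lower and 1 higher in Ath+HF+BCAA 68w than on the basal diet (median -0.44), with Cpox, the coproporphyrinogen oxidase, at -2.28 (SE 0.10, adjusted p = 1.4e-09), Urod at -0.87, Uros at -0.50 and Fech at -0.44, and Ppox higher at 0.47. Alas1, the rate-limiting enzyme, was not called there, at 0.36 (SE 0.28), and was higher in Ath+HF 68w at 1.02 (SE 0.28, adjusted p = 0.011). Of 3 genes of heme breakdown 2 were higher in Ath+HF+BCAA 68w, the heme oxygenase gene Hmox1 at 1.39 (SE 0.21, adjusted p = 5.7e-05) and Blvrb at 0.88. Hmox1 is also a macrophage gene, and the macrophage markers were higher in the same arrays. None of 4 genes for P450 partners (Cyb5a, Cyb5b, Cyb5r3 and Pgrmc1) was called in Ath+HF+BCAA 68w against the basal diet. Por, the gene of P450 reductase, was on this list of 5 but had no value here.

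**Figure D5:**
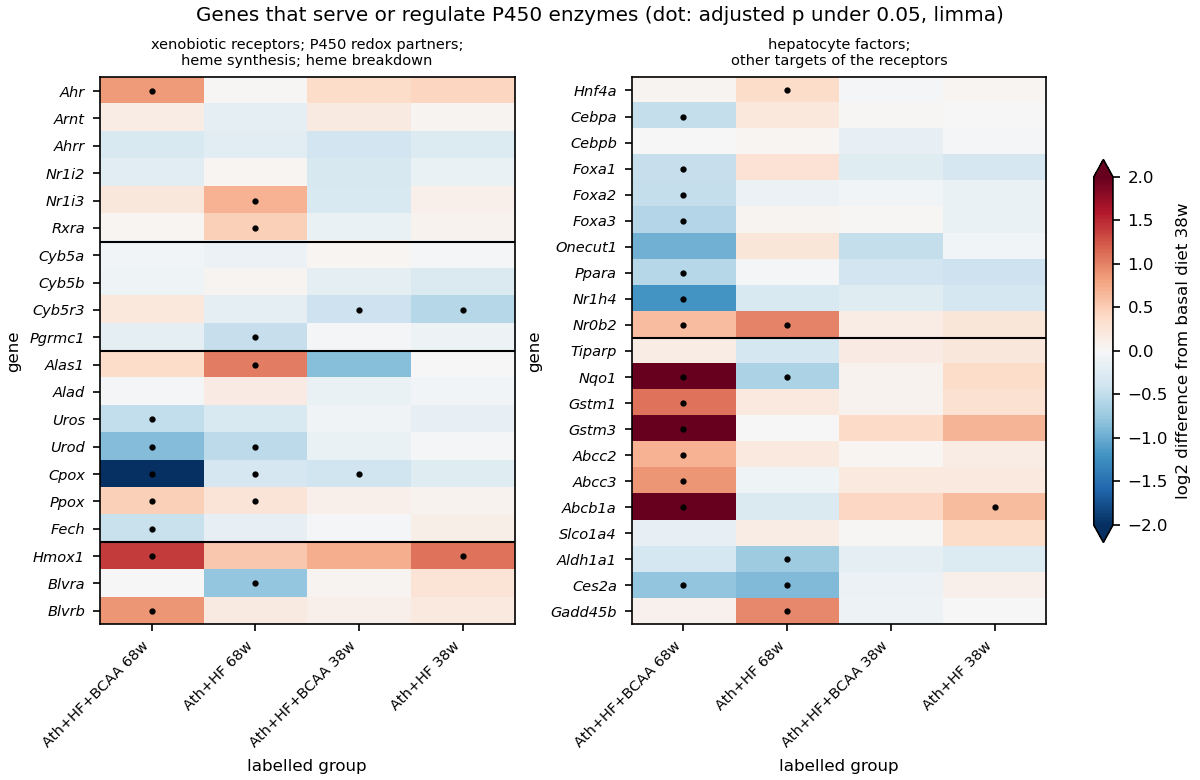
Log2 difference from basal diet 38w of genes for receptors, P450 partners, heme synthesis and breakdown (left), and of hepatocyte factors and other receptor targets (right), in the 4 other labelled groups (columns), with a dot where the limma adjusted p was under 0.05. The colour scale ends at 2 in each direction, beyond which lie Cpox at -2.28 and Gstm3, Abcb1a and Nqo1, at 2.70, 2.30 and 2.05, in Ath+HF+BCAA 68w.

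Genes that follow the time of day also differed. Dbp, a clock-driven activator that acts on Cyp2a genes in mouse liver, was at 2.77 (SE 0.16, adjusted p = 7.1e-09) and Tef at 1.11 in Ath+HF+BCAA 68w, while Nfil3, which represses the same sites, was at -1.99 (SE 0.12, adjusted p = 1.2e-08). In Ath+HF 68w none of the 4 genes of this list was called, with 0.31 (SE 0.16) for Dbp and 0.16 (SE 0.12) for Nfil3. The time of day at which the livers were taken was not given in the sources used here, and its part in the P450 results was not tested.

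P450 genes outside families 1 to 3 fell with them in part. Of 30, counted without symbols that end in a letter, 13 were lower and 3 higher in Ath+HF+BCAA 68w than on the basal diet (21.8% and 22.9% of all genes), with a median of -0.23. In Ath+HF 68w 5 were lower and 1 higher (19.1% and 19.0% of all genes), with a median of 0.09. The male-biased Cyp4a12a and Cyp4a12b, which are outside the 30, and Cyp7b1, which is among them, were at -1.61, -1.09 and -1.82 in Ath+HF+BCAA 68w, all called. In the same arrays both directions of sex bias were represented among the falls, with Cyp2b9 and the dim Cyp3a16 of the 4 measured female-biased members and Cyp2u1 of the 2 male-biased ones. Of 9 pericentral hepatocyte markers 5 were lower and 2 higher, among them Oat at -1.61 and Lect2 at 0.56, and of 8 periportal markers 2 were lower and 1 was higher. The pericentral list includes Cyp1a2, which was higher, and Cyp2e1, which was lower.

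Arrays of a group differed from each other by a median SD of 0.15 to 0.20 over the 52 genes. Replicate 3 of Ath+HF 68w was the lowest of its group in 31 of the 52 genes, and replicate 3 of the basal diet in 27. Without the array of Ath+HF 68w, 6 genes were lower and 3 higher than on the basal diet in that group in place of 11 and 6, and without the basal diet array 12 were lower and 3 higher. The count in Ath+HF+BCAA 68w was 28 lower and 6 higher without that array of Ath+HF 68w and 27 lower and 5 higher without the basal diet array. No share of all genes is given for these refits, so the changes in count are not read as particular to the P450 genes.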

How the data were processed

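Liver RNA was measured on 15 GeneChip Mouse Gene 1.0 ST arrays. The deposited values are log2 signals per transcript cluster, which the authors made with RMA in Affymetrix Expression Console (background correction, quantile normalization and summary over probes), and gene symbols are those of the platform annotation. RMA tends to compress large differences, and near-identical copies may share probe signal. The members and lists were chosen with earlier results of these data known. Of 35556 clusters, 21789 carry 1 symbol, 1621 several and 12146 none, and each of 19938 genes was read from its brightest cluster. All 15 arrays entered 1 fit by group in limma 3.58.1 (R 4.3.3) with eBayes and Benjamini-Hochberg adjustment (10 residual and 5.315 prior degrees of freedom). Genes given by array are fixed representatives of the subfamilies and, for each comparison, the 3 called members with the largest change in each direction whose arrays did not overlap. Promoter windows came from RefSeq. On simulated data for Ath+HF+BCAA 68w against the basal diet, over 19938 genes, 0%, 52%, 88% and 100% of genes changed by folds of 1.2, 1.5, 2 and 4 were called, with 6 calls among unchanged genes. Only 50 genes were changed at each fold, while 8899 were called in the real comparison. The adjusted p depends on how many genes differ, so these shares do not carry over to it. The number of arrays limits the precision. The alternatives were other summaries of clusters, dim genes left out, all clusters tested, equal array medians, quantile normalization, a variance trend, array weights, a replicate block, the compared groups alone, the study's analysis of variance and each array left out.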

Additional observations from a re-analysis of the deposited data

Results flagged for a closer look

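In 10 genes the difference of Ath+HF+BCAA from Ath+HF at 68w and the same difference at 38w were themselves different by the limma test of that difference, among the genes given by array. Higher at 68w than at 38w was the difference for Cyp2c55 by 1.77, for Cyp1a2 by 1.44 and for Cyp1b1 by 0.94. Lower it was for Cyp2c54 by -2.79, for Cyp2c37 by -1.99, for Cyp2c67 by -1.52, for Cyp2j5 by -1.07, for Cyp2c29 by -0.79, for Cyp2d9 by -0.78 and for Cyp2e1 by -0.39. The Cyp2c29 value lost its call with all transcript clusters tested, with quantile normalization and with any of 8 single arrays left out (limma adjusted p = 0.059 to 0.0935): replicates 2 and 3 of Ath+HF 38w, 1 and 3 of Ath+HF+BCAA 38w, 1 and 2 of Ath+HF 68w and 1 and 2 of Ath+HF+BCAA 68w. The Cyp2e1 value lost it with replicate numbers as a block and with any of 9 left out (limma adjusted p = 0.0542 to 0.0958): replicates 2 and 3 of Ath+HF 38w, 1 and 2 of Ath+HF+BCAA 38w, any of Ath+HF 68w and 1 and 2 of Ath+HF+BCAA 68w. The labels of the 68w groups are in doubt, and exchanging them would turn the sign of the 68w differences. Macrophage, stellate cell and clock genes moved with these genes between the labels Ath+HF+BCAA 68w and Ath+HF 68w, and their part was not tested.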

How the results depend on the processing

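The 24 genes given by array had 86 called differences. No sign turned in the 745 refits of them that were made under 10 alternatives (another 115 were not run, where an alternative did not hold the gene or the comparison, and the analysis of variance is given for counts alone) or with any of the 15 arrays left out. The call was kept wherever a refit was made for 67 of the 86. Dim genes left out gave, of the 52 genes, 1 higher in Ath+HF 38w, 2 lower in Ath+HF+BCAA 38w, 3 higher in Ath+HF 68w and 2 higher in Ath+HF+BCAA 68w, each against the basal diet, 2 higher in Ath+HF 68w against Ath+HF 38w, 1 higher in Ath+HF+BCAA 68w against Ath+HF+BCAA 38w and 3 higher in Ath+HF+BCAA 68w against Ath+HF 68w, fewer genes being tested. With only the groups compared in the fit, 1 gene was higher in Ath+HF 38w, and 0 were higher and 0 lower in Ath+HF+BCAA 38w, against the basal diet. With the 38w arrays alone, chosen after seeing the data, 1 was higher in Ath+HF 38w and 0 in Ath+HF+BCAA 38w. All clusters tested gave 0 lower in Ath+HF+BCAA 38w and 7 lower in Ath+HF 68w. With array medians made equal, which shifted the median of all genes by over 0.1 in each comparison of 68w with 38w (to -0.18 in Ath+HF+BCAA 68w and -0.14 in Ath+HF 68w against the basal diet), Ath+HF 68w had 1 higher and 19 lower, and with quantile normalization 2 higher. The methods' analysis of variance with Bonferroni gave 2 higher and 2 lower in Ath+HF 68w against the basal diet, 2 higher in Ath+HF+BCAA 68w against Ath+HF+BCAA 38w and 3 against Ath+HF 68w, and after Benjamini-Hochberg 1 higher in Ath+HF 38w, 0 lower in Ath+HF+BCAA 38w and 3 higher and 7 lower in Ath+HF 68w against the basal diet. Replicate numbers did not pair the arrays (median correlation of deviations 0.0026, over 0.1 in 3 of 30 pairs), and with them as a block 2 genes were lower in Ath+HF+BCAA 38w. The cause of these shifts was not tested. With each array left out, the counts against the basal diet ran from 1 to 3 higher in Ath+HF 38w (1 without basal diet replicate 1 or Ath+HF 38w replicate 2), 1 to 3 higher and 0 to 5 lower in Ath+HF+BCAA 38w (3 higher without basal diet replicate 2, 2 higher without basal diet replicate 3, Ath+HF 38w replicate 1 or 3 or Ath+HF 68w replicate 2; 5 lower without basal diet replicate 3, 2 without Ath+HF+BCAA 38w replicate 2 or Ath+HF 68w replicate 3, and 0 without basal diet replicate 1 or Ath+HF+BCAA 38w replicate 1), 3 to 6 higher (3 without basal diet replicate 3 or Ath+HF 68w replicate 2 or 3) and 6 to 12 lower in Ath+HF 68w (7 without basal diet replicate 1 or 2, and 6 without Ath+HF 68w replicate 3) and 24 to 28 lower in Ath+HF+BCAA 68w. Against Ath+HF 68w the Ath+HF+BCAA 68w arrays had 3 to 5 higher (3 without replicate 3 of either group) and 16 to 22 lower. Shares of all genes under an alternative are given only for equal array medians and quantile normalization in Ath+HF 68w against the basal diet. The other counts of this section have none beside them and are not read as particular to the P450 genes.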
